A study of Mus musculus with 6 samples.

Results

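Mouse genes of antigen presentation by major histocompatibility complex (MHC) class II molecules were chosen by gene symbol, 8 of 24346 genes in the deposited table. They are H2-Aa, H2-Ab1, H2-Eb1, Cd74, H2-DMa, H2-DMb1, H2-DMb2 and Ciita, and each was found as 1 row. RNA was measured in the proximal epididymis, the initial segment together with the caput, of wild-type mice aged 12 weeks. Mice had been injected intraperitoneally with busulfan (3 libraries), an alkylating agent that kills dividing germ cells in the testis, or with dimethyl sulfoxide (DMSO, 3 libraries). The comparison asks how transcripts of this tissue differ after busulfan, and direct effects of the drug on this tissue and effects by way of the testis cannot be told apart. The sources used here give no strain, no dose, no interval between injection and collection, and do not say that each replicate was a separate mouse, so p-values measure the spread between these libraries, which may be technical in part.

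Class II molecules are pairs of an α and a β chain that carry peptides of ingested proteins to the cell surface, where CD4+ T cells read them. The invariant chain, the product of Cd74, fills the peptide groove until the complex reaches the endosome. There proteases trim it, and the DM molecule, again a pair of an α and a β chain, exchanges the last fragment for a peptide. CIITA switches these genes on together, by joining factors that sit on the X and Y boxes of their promoters. Class II molecules are known for their place on dendritic cells, macrophages and B cells, and the epididymal wall holds a dense net of mononuclear phagocytes around and between the epithelial cells.

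Promoter sequences from RefSeq (GRCm38.p6) were matched for 5 of the 8 symbols, namely H2-Aa, H2-Eb1, H2-DMa, H2-DMb1 and H2-DMb2. The DM β genes H2-DMb2 and H2-DMb1, whose levels parted after busulfan, hold the letters GATGATG, called the X box core here. H2-Eb1, whose level fell, holds them too, and the stretch just before these letters differs between these genes. The letters of that core are absent from the window of H2-Aa, which holds TGACGTCA ahead of its Y box. The core is only part of an X box, so its absence does not mean that H2-Aa lacks an X box. The stretches below are shown to set these promoters side by side. Each is given 5′ to 3′ on the strand of its gene, and capitals mark 3 motifs searched on both strands: the X box core GATGATG, the Y box letters ATTGG (which reads CCAAT when on the opposite strand) and the cyclic AMP response element TGACGTCA.
H2-DMb2, chr17:34145099-34145233, plus strand: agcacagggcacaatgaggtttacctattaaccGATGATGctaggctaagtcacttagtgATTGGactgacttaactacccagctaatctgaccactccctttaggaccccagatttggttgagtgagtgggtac
H2-DMb1, chr17:34153090-34153119, plus strand, X box site alone: ttacctagtaactGATGATGctaggctgat
H2-Eb1, chr17:34305717-34305851, plus strand: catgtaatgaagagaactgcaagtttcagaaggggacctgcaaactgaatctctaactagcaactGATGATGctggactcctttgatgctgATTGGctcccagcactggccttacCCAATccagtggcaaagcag
H2-Aa, chr17:34287839-34287973, minus strand: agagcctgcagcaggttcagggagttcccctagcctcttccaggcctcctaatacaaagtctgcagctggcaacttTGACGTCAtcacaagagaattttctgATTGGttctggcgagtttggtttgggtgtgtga

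In windows of 300 bases around the RNA start, the X box core was followed by a Y box after 20 bases in H2-DMb2, after 20 bases in H2-DMb1 and after 19 bases in H2-Eb1. The core began 117 bases before the RNA start in H2-DMb2, 88 bases before it in H2-DMb1 and 85 bases before it in H2-Eb1. RefSeq and GENCODE M21 differ on these starts. RefSeq begins H2-DMb1 at 34153191, 119 bases inside the first exon of the GENCODE gene, so that the printed site lies within that exon. RefSeq begins H2-DMb2 at 34145249, and the printed stretch lies ahead of 2 of its 3 GENCODE transcripts but in an intron of the one that starts at 34143307. H2-DMa had 2 windows, in which the X box core and TGACGTCA did not occur, and 1 of them held a Y box; no more is read from this. Of all 32851 RefSeq windows 3.48% held the core on either strand, and 15 windows (0.0457%), these 3 included, held it on the gene's strand with a Y box within 30 bases. The core was written down from these windows, so the counts describe them and are no test. ATTGG by itself was in 37.4% of windows and TGACGTCA, found in H2-Aa, in 1.79%. In H2-Aa TGACGTCA began 74 bases and the Y box 48 bases before the RNA start. In H2-Eb1 the core began 85 bases and the first Y box 59 bases before it. No motif overlapped another in the printed stretches. A match is not shown to be bound in this tissue.

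Of the 8 genes 7 passed the filter on low values and Ciita did not. Of these 7 tested genes, 6 were lower in busulfan libraries than in DMSO libraries. They comprised a group of 5 that kept about 60% of their level and a single gene, H2-DMb2, that kept 4.01%. Values are the authors' normalized FPKM (fragments per kilobase of transcript, scaled to the fragments of the library). Testing used limma on log2(FPKM + 1) for every gene that averaged 1 FPKM or more across the 6 libraries, and a Benjamini-Hochberg adjusted p under 0.05 over all 12848 tested genes was counted as a call. Log2 changes subtract DMSO from busulfan on that scale, where changes of low genes come out too small. Of all tested genes 22.1% were called lower and 20.8% higher, so calls in either direction were common in these libraries. That split was 2833 lower and 2668 higher as deposited, 2302 lower and 3228 higher after quantile normalization, and 1595 lower and 4579 higher after each library was scaled to the same summed FPKM. The median log2 change of the 7 tested genes was -0.73, against -0.0034 over all tested genes, and 9.04% of all tested genes had a change of -0.5 or lower. None was higher with limma, at an adjusted p under 0.05 or at an unadjusted p under 0.05. The groups did not overlap, with every busulfan library lower, for 6 of the 7 tested genes, as for 27.7% of all tested genes. In whole tissue, fewer cells that express a gene and less RNA per cell cannot be told apart.

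**Figure D1:**
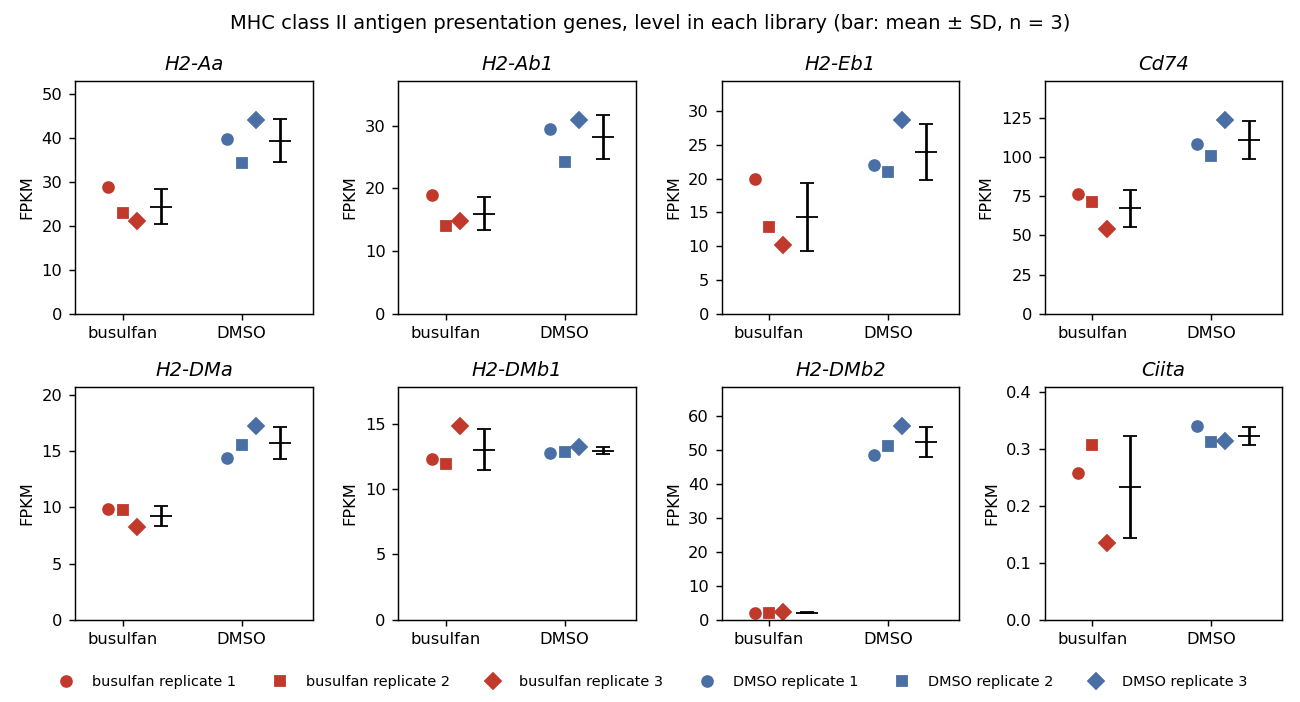
Level in FPKM (vertical axis, from 0) of each of the 8 genes in the 3 busulfan and the 3 DMSO libraries; points are libraries, with 1 symbol per replicate number, and bars are the mean ± SD (n = 3). The busulfan points lie below the DMSO points in every panel but that of H2-DMb1, and near 0 for H2-DMb2.

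H2-Aa encodes the α chain of the A molecule, the class II molecule that mice of all common strains make (NCBI gene 14960; GENCODE M21, chromosome 17, 34282744 to 34287823). It stood at 28.9, 23.02 and 21.2 FPKM in busulfan replicates 1, 2 and 3, against 39.8, 34.3 and 44.1 FPKM in DMSO replicates 1, 2 and 3. All 3 busulfan libraries were below the lowest DMSO library. The mean was 24.4 ± 4.02 FPKM with busulfan and 39.4 ± 4.92 FPKM with DMSO (SD, n = 3 each), a log2 change of -0.68 ± 0.12 (SE; limma adjusted p = 0.00297). H2-Ab1 encodes the β chain that pairs with it (NCBI gene 14961; chromosome 17, 34257689 to 34269419). Its values were 18.9, 14.0 and 14.8 FPKM in the busulfan libraries, against 29.5, 24.3 and 31.0 FPKM in the DMSO libraries. The groups again lay apart, with a log2 change of -0.79 ± 0.12 (SE; limma adjusted p = 0.0013). The ratio of H2-Aa to H2-Ab1 was 1.43 to 1.65 in busulfan libraries and 1.35 to 1.43 in DMSO libraries, ranges that meet at 1.43.

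H2-Eb1, the gene of the β chain of the E molecule (NCBI gene 14969; chromosome 17, 34305867 to 34316674), was the least even of the chain genes. It stood at 19.99, 12.8 and 10.1 FPKM in the busulfan libraries, against 22, 21.05 and 28.7 FPKM in the DMSO libraries. Busulfan replicate 1 came within about 1 FPKM of the lowest DMSO library. The log2 change was -0.74 ± 0.22 (SE; limma adjusted p = 0.0249). That call was lost without busulfan replicate 2 (limma adjusted p = 0.0809), busulfan replicate 3 (0.0612), DMSO replicate 1 (0.0512) or DMSO replicate 3 (0.0895), with log2 changes of -0.54 to -0.79 in those fits. H2-Ea-ps, the annotated pseudogene of the E α chain, is not among the 8 genes. The reference strain C57BL/6 carries a deletion at the promoter of this gene, while other strains transcribe it. Its row stood at 16.0, 13.2 and 11.6 FPKM in the busulfan libraries, against 22.95, 22.2 and 26.0 FPKM in the DMSO libraries. It fell by 0.77 on the log2 scale (SE 0.11; limma adjusted p = 0.000882), an amount close to that of H2-Eb1. Reads of strains other than the reference can be counted unevenly at such polymorphic genes, and the strain was not given, so levels compared between class II genes carry that uncertainty.

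Cd74, the invariant chain gene (NCBI gene 16149; chromosome 18, 60803848 to 60812652), was the most abundant of the 8 in FPKM in every library. It stood at 76.2, 71.3 and 54.2 FPKM in the busulfan libraries, against 109, 101 and 124 FPKM in the DMSO libraries. The groups lay apart, and busulfan replicate 3 was lowest. The mean was 67.2 ± 11.6 FPKM with busulfan and 111 ± 11.9 FPKM with DMSO (SD, n = 3 each), a log2 change of -0.73 ± 0.13 (SE; limma adjusted p = 0.00248). Cd74 also has roles outside antigen presentation, as a receptor for the cytokine MIF. The ratio of Cd74 to the summed H2-Aa, H2-Ab1 and H2-Eb1 was 1.12 to 1.43 in busulfan libraries and 1.19 to 1.26 in DMSO libraries, and these ranges overlap.

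The DM molecule is made of the H2-DMa chain and a β chain that mice can make from either of 2 neighbouring genes. H2-DMa (NCBI gene 14998; chromosome 17, 34119541 to 34139101) stood at 9.82, 9.72 and 8.22 FPKM in the busulfan libraries, against 14.4, 15.5 and 17.2 FPKM in the DMSO libraries. It moved with the A chains, with a log2 change of -0.71 ± 0.089 (SE; limma adjusted p = 0.000437). In GENCODE M21, 360 of its 3448 exonic bases are shared with overlapping genes, among them Brd2 on the opposite strand. Brd2 had a log2 change of -0.06 (limma adjusted p = 0.318), and the sources used here do not say whether counting used strand.

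The β chain genes parted. H2-DMb2 (NCBI gene 15000; chromosome 17, 34143307 to 34151555) stood at 2.04, 1.99 and 2.28 FPKM in the busulfan libraries, against 48.7, 51.3 and 57.1 FPKM in the DMSO libraries. The mean of 2.102 ± 0.153 FPKM with busulfan was 24.9-fold below the 52.4 ± 4.33 FPKM of DMSO (SD, n = 3 each), and the log2 change was -4.10 ± 0.075 (SE; limma adjusted p = 7.3e-09). Of the 12848 tested genes, 40, H2-DMb2 included, were lower by at least this much. In DMSO libraries H2-DMb2 was next after Cd74 among the 8 genes, above H2-Aa, whereas in busulfan libraries only Ciita was below it.

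H2-DMb1 (NCBI gene 14999; chromosome 17, 34153072 to 34160230) begins 1516 bases past the end of H2-DMb2. It stood at 12.3, 11.9 and 14.8 FPKM in the busulfan libraries, against 12.8, 12.9 and 13.2 FPKM in the DMSO libraries. The busulfan libraries lay on both sides of the DMSO libraries, with replicate 3 the highest of all 6. The log2 change was 0.0009 with a 95% interval of -0.19 to 0.19 (limma adjusted p = 0.994), an interval that excludes the changes estimated for the other 6 tested genes. The ratio of H2-DMb1 to H2-DMa was 1.23 to 1.80 in busulfan libraries and 0.768 to 0.887 in DMSO libraries, and these ranges do not overlap.

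The transcripts of the DM β pair are alike, and some fragments match both genes. The GENCODE M21 transcripts H2-DMb2-201 and H2-DMb1-201 were 94.4% identical over 1255 aligned bases. Of the 50-base windows of H2-DMb2-201, 26.8% occurred unaltered in H2-DMb1-201, and of its 100-base windows 13.5%, so most windows tell the genes apart. How the authors' software assigned fragments that match both is not stated in the sources used here, and single values of the pair are uncertain to that extent. H2-DMb2 held 13.3% to 14.3% of the summed FPKM of the pair in busulfan libraries and 79.2% to 81.2% in DMSO libraries. Summed into 1 row, a choice made after the values were seen, the pair stood at 15.1 ± 1.73 FPKM with busulfan and 65.3 ± 4.57 FPKM with DMSO (SD, n = 3 each). The sum was 4.32-fold lower with busulfan, with a log2 change of -2.04 ± 0.085 (SE; limma adjusted p = 9.26e-07), and moving fragments between the rows would leave this sum nearly the same, since the transcripts have 1424 and 1404 bases. The summed β chain transcripts were 1.43 to 2.08 times those of H2-DMa in busulfan libraries and 4.08 to 4.27 times in DMSO libraries.

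**Figure D2:**
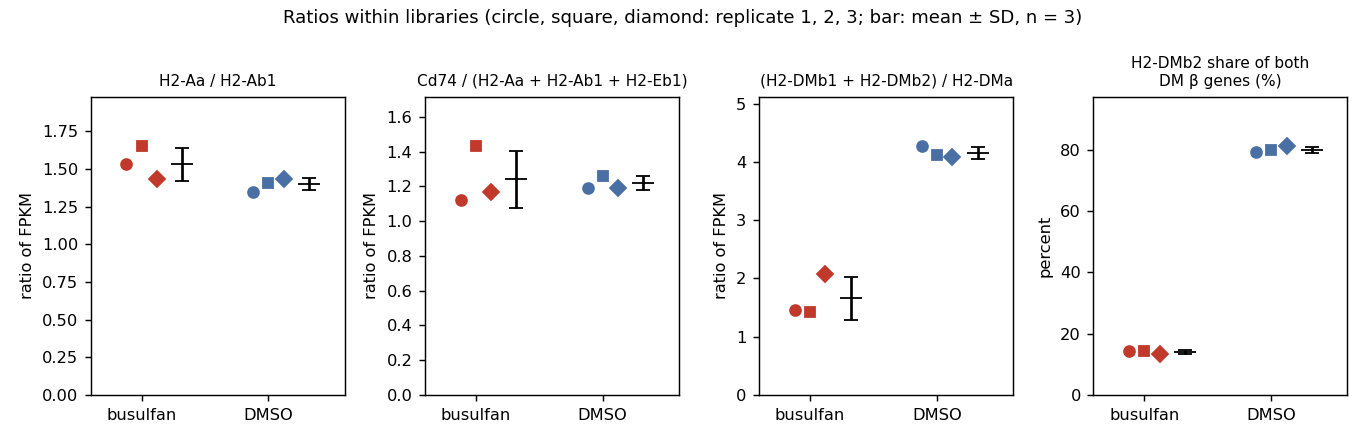
Ratios of FPKM within each library (the last panel is a percent), with busulfan libraries left of DMSO libraries; symbols are replicates and bars the mean ± SD (n = 3). H2-DMb2 makes up 13.3% to 14.3% of the DM β pair in busulfan libraries and 79.2% to 81.2% in DMSO libraries, while the ranges of the Cd74 ratio overlap.

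Ciita, the gene of the class II transactivator (NCBI gene 12265; chromosome 16, 10480059 to 10528418), did not reach the mean of 1 FPKM needed for testing. It stood at 0.258, 0.307 and 0.134 FPKM in the busulfan libraries, against 0.340, 0.312 and 0.314 FPKM in the DMSO libraries. Each busulfan library was below each DMSO library, but busulfan replicate 2 only narrowly. From the spacing of low values in genes with a single transcript, depth was roughly 11400000 to 13400000 fragments per library. With the longest annotated transcript of 6007 bases, the value of Ciita then rests on about 9 to 24 fragments in a busulfan library and about 25 in a DMSO library. With the filter removed, its log2 change was -0.10, with a 95% interval of -0.25 to 0.05 (limma adjusted p = 0.277). With a pseudocount of 0.1 as well, tried after the values were seen, it was -0.38, with a 95% interval of -1.01 to 0.25 (limma adjusted p = 0.349). Neither fit showed a difference in Ciita, and the second interval is wide enough to hold the falls of the chain genes. In the annotation 329 of its 9535 exonic bases are shared with Dexi on the opposite strand.

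All of the 8 genes but Cd74 and Ciita lie in the class II region of chromosome 17. In the region from H2-Oa to H2-Ea-ps, 15 genes had a row and 12 were tested, 6 of them outside the 8 genes. The neighbours did not all move with the class II genes. Between H2-DMb1 and H2-Ab1 lie genes of class I peptide supply: Tap1, a subunit of the peptide transporter, stood at 9.75 ± 0.759 FPKM with busulfan and 7.17 ± 0.249 FPKM with DMSO (limma adjusted p = 0.00282), and the immunoproteasome subunit gene Psmb8 at 18.5 ± 2.51 FPKM with busulfan and 13.7 ± 1.07 FPKM with DMSO (0.0124). Both rose. Tap2, which encodes the partner of TAP1, fell to 8.20 ± 0.126 FPKM with busulfan, against 10.6 ± 0.307 FPKM with DMSO (limma adjusted p = 0.00198), and Psmb9 had a log2 change of 0.03 (limma adjusted p = 0.879; all SD, n = 3). H2-Oa, H2-Ob and H2-Eb2 were under 1 FPKM in every library and were not tested.

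**Figure D3:**
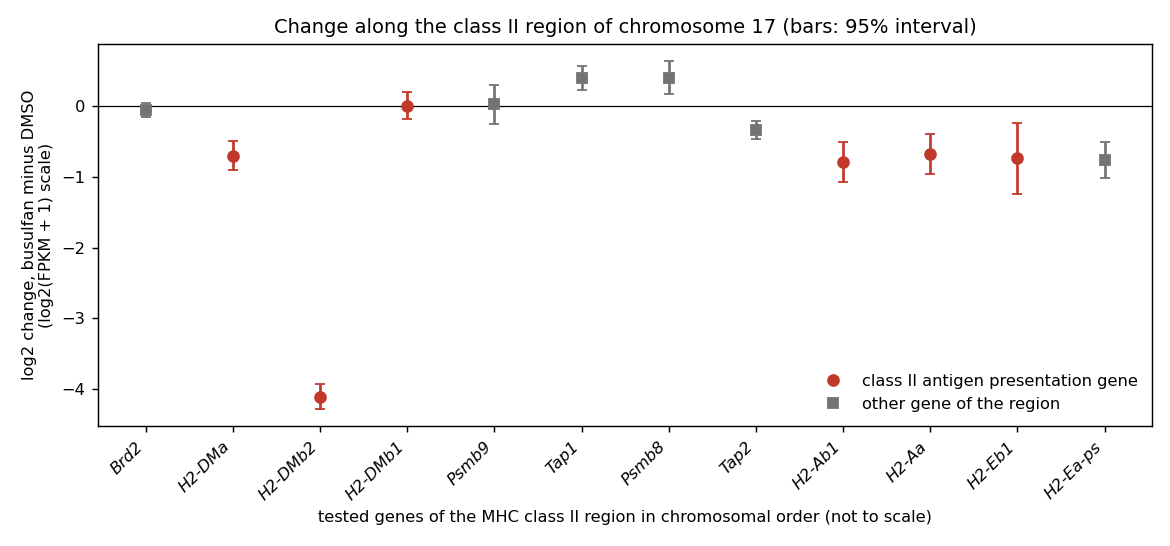
Difference of busulfan from DMSO in mean log2(FPKM + 1) (vertical axis), of the 12 tested genes from Brd2 to H2-Ea-ps in chromosomal order; circles are the class II antigen presentation genes, squares the other genes, and bars 95% intervals. H2-DMb2 lies at -4.10 beside H2-DMb1 at 0.0009, and H2-Ab1, H2-Aa, H2-Eb1 and H2-Ea-ps lie between -0.68 and -0.79.

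Factors that assemble on class II promoters together with CIITA were described by a list of 8 tested genes (Rfx5, Rfxap, Rfxank, Nfya, Nfyb, Nfyc, Creb1 and Ctcf). Of these, 2 rose, the median log2 change was 0.04, and with limma 0 were called lower, at an adjusted p under 0.05 or at an unadjusted p under 0.05. Among all tested genes 20.8% were called higher and 22.1% lower. Rfxap, a subunit of the RFX complex on the X box, stood at 6.37 ± 0.470 FPKM with busulfan and 4.80 ± 0.133 FPKM with DMSO (SD, n = 3 each; limma adjusted p = 0.00654). Rfxank, another subunit, stood at 4.32 ± 0.290 FPKM with busulfan and 3.36 ± 0.230 FPKM with DMSO (SD, n = 3 each; limma adjusted p = 0.0242). The Rfxank call was lost without busulfan replicate 1 or 3 or DMSO replicate 2 or 3 (limma adjusted p of 0.0537 to 0.0798). Nfyc of the Y box factor NF-Y had a log2 change of -0.0018.

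Genes of the endosomal steps moved in both directions. Among 11 tested genes 4 fell and 5 rose, set against 22.1% of all tested genes lower and 20.8% higher, and the median log2 change was 0.04. Ctss, whose protease cathepsin S makes the last cuts in the invariant chain in dendritic cells and B cells, stood at 47.3, 41.7 and 36.2 FPKM in the busulfan libraries, against 56.0, 52.6 and 57.9 FPKM in the DMSO libraries. Its log2 change was -0.41 (SE 0.091; limma adjusted p = 0.0078, and 0.0742 after scaling to the same sum), smaller in size than those of the chain genes. Cathepsin L does that step in thymic epithelium, and its gene Ctsl rose to 515 ± 7.83 FPKM with busulfan, against 335 ± 19.1 FPKM with DMSO (limma adjusted p = 6.39e-05). Ctsh, a cathepsin with aminopeptidase activity, fell to 62.9 ± 1.78 FPKM with busulfan, against 139 ± 3.74 FPKM with DMSO (limma adjusted p = 8.49e-07). Cst3, the gene of the secreted cathepsin inhibitor cystatin C, fell to 861 ± 11.1 FPKM with busulfan, against 1164 ± 56.4 FPKM with DMSO (limma adjusted p = 0.000496; all SD, n = 3). Ifi30, the gene of the endosomal thiol reductase GILT, rose 1.26-fold, and March8, the gene of a ubiquitin ligase that can remove class II molecules from the surface, rose 1.26-fold (limma adjusted p of 0.00263 and 0.000535). Many of these proteases are made by most cell types, so their levels do not speak for antigen presenting cells alone.

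Class I molecules display peptides of the cell's own proteins. Among 22 tested genes of class I presentation, 3 fell, 7 rose and the other 12 did not pass, set against 22.1% of all tested genes lower and 20.8% higher, and the median log2 change was 0.08. The heavy chain gene H2-K1 had a log2 change of 0.0013 with a 95% interval of -0.14 to 0.15, and the shared light chain gene B2m one of 0.11 (limma adjusted p = 0.153). H2-T23, a nonclassical class I gene, fell to 34.8 ± 1.05 FPKM with busulfan, against 49.8 ± 0.872 FPKM with DMSO (SD, n = 3 each; limma adjusted p = 7.96e-05), and Tapbpl, the gene of a peptide editor, had a log2 change of -0.46 (limma adjusted p = 0.000248). After each library was rescaled to the same summed FPKM, 12 of the 22 class I genes were called higher, as were 4579 of all 12848 tested genes. Of 16 tested genes of the interferon-γ pathway, which induces Ciita in many cell types, 6 fell and 2 rose, the median log2 change being -0.17. The count that fell ran from 4 to 6 over the alternatives tried. Irf1, an interferon-induced transcription factor gene, rose to 17.8 ± 1.38 FPKM with busulfan, against 11.8 ± 1.42 FPKM with DMSO (limma adjusted p = 0.00197), while the interferon-inducible GTPase gene Irgm1 fell to 9.03 ± 1.19 FPKM with busulfan, against 13.4 ± 1.74 FPKM with DMSO (limma adjusted p = 0.00596; all SD, n = 3). Cd38, an enzyme gene that interferons induce, had a log2 change of -0.59 (limma adjusted p = 0.00988). Ifng itself was listed at 0 in every busulfan library and in DMSO replicates 1 and 2, and at 0.141 FPKM in DMSO replicate 3. Of 3 tested costimulatory genes, Cd274 (PD-L1) rose 1.66-fold (limma adjusted p = 0.0374), a call lost on leaving out any of the 6 libraries (limma adjusted p of 0.0529 to 0.099), and Cd80 and Cd86 were too low to be tested.

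**Figure D4:**
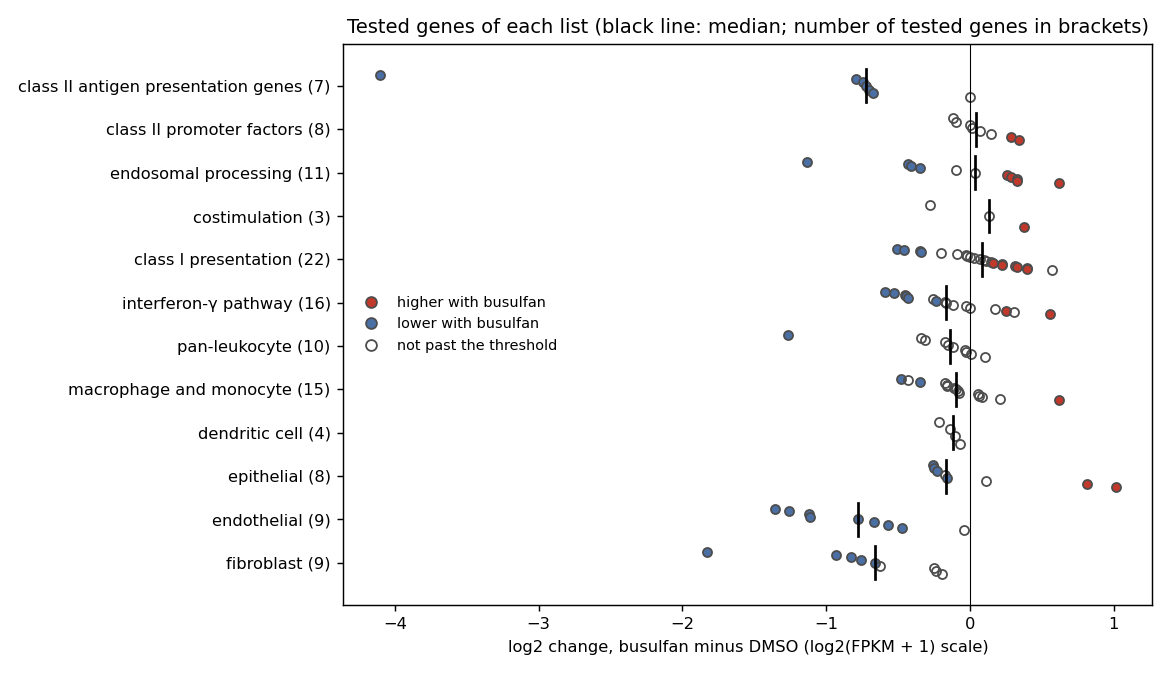
Difference of busulfan from DMSO in mean log2(FPKM + 1) (horizontal axis), of every tested gene in 12 lists (rows, with the number tested in brackets); black lines are medians, and filled points passed the threshold. The class II antigen presentation genes have a median of -0.73, the macrophage list -0.10, the endothelial list -0.78 and the fibroblast list -0.66.

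Markers of the cells that carry class II molecules were set beside these falls, and their part in them was not tested. The shares for all tested genes were 22.1% lower and 20.8% higher. Of 15 tested macrophage and monocyte markers, 2 fell and 1 rose, the median log2 change being -0.10, and the count that fell ran from 0 to 3 over the alternatives tried. The summed FPKM of the 17 listed was 237 to 322 in busulfan libraries and 269 to 297 in DMSO libraries. The complement gene C1qa stood at 44.5 ± 7.14 FPKM with busulfan and 47.8 ± 3.82 FPKM with DMSO (SD, n = 3 each; limma adjusted p = 0.478). Csf1r, the receptor gene that macrophages need to live, stood at 11.0 ± 1.76 FPKM with busulfan and 14.2 ± 0.754 FPKM with DMSO (SD, n = 3 each; limma adjusted p = 0.0273, and 0.201 after scaling to the same sum or 0.0633 to 0.0866 without busulfan replicate 2 or 3 or DMSO replicate 2 or 3). Itgam, the gene of the integrin chain CD11b, stood at 1.55 ± 0.323 FPKM with busulfan and 2.55 ± 0.374 FPKM with DMSO (SD, n = 3 each; limma adjusted p = 0.0196, and 0.0508 to 0.071 without busulfan replicate 3 or DMSO replicate 1 or 2). Cd68, the gene of a lysosomal protein of macrophages, rose 1.56-fold. The summed H2-Aa, H2-Ab1 and H2-Eb1 were 0.179 to 0.210 of the summed macrophage markers in busulfan libraries and 0.284 to 0.349 in DMSO libraries, and these ranges do not overlap.

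Dendritic cell markers were low. Of 13, 4 were tested and with limma 0 passed in either direction, at an adjusted p under 0.05 or at an unadjusted p under 0.05, with log2 changes of -0.22 to -0.07. The most abundant, the integrin gene Itgae, stood at 6.50 ± 0.362 FPKM with busulfan and 7.06 ± 0.594 FPKM with DMSO (SD, n = 3 each). The summed FPKM of the 13 was 15.2 to 18.2 in busulfan libraries and 17.4 to 19.8 in DMSO libraries, and the defining markers Xcr1, Clec9a and Flt3 were under 0.4 FPKM in every library. All of the untested dendritic markers had a lower mean with busulfan than with DMSO, at levels too low for testing. B cell markers were low: Pax5 was listed at 0 in all 6 libraries, and Cd22 alone was tested. Cd22, the gene of an inhibitory receptor, rose to 1.58 ± 0.180 FPKM with busulfan, against 0.653 ± 0.143 FPKM with DMSO (SD, n = 3 each; limma adjusted p = 0.00378). No T cell marker reached the mean needed for testing, and their sum was 3.35 to 4.77 FPKM with busulfan and 3.14 to 5.03 FPKM with DMSO. Of 10 tested genes of most leukocytes, Cd52 alone passed with limma, and the median log2 change was -0.14. Cd52, also a product of the epididymal epithelium, fell to 128 ± 14.8 FPKM with busulfan, against 308 ± 15.5 FPKM with DMSO (SD, n = 3 each; limma adjusted p = 1.13e-05). Ptprc, the gene of the leukocyte antigen CD45, stood at 1.52, 1.46 and 0.718 FPKM in the busulfan libraries, against 1.46, 1.49 and 1.48 FPKM in the DMSO libraries (limma adjusted p = 0.425). The summed 8 genes were 0.705 to 1.05 times the summed leukocyte markers in busulfan libraries and 0.753 to 0.920 times in DMSO libraries, ranges that overlap. Without Cd52 they were 3.66 to 3.87 times the other leukocyte markers in busulfan libraries and 6.29 to 7.34 times in DMSO libraries, where the omission of Cd52 was chosen after its values were seen. The sum of the 8 genes includes H2-DMb2. H2-Aa, H2-Ab1 and H2-Eb1 summed alone were 1.26 to 1.56 times the leukocyte markers without Cd52 in busulfan libraries and 1.92 to 2.42 times in DMSO libraries.

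Markers of other cells of the wall moved too, and their part in the class II values was not tested. Their counts stand beside 22.1% of all tested genes lower and 20.8% higher. Of 9 tested endothelial markers 8 fell, with a median log2 change of -0.78, and of 9 tested fibroblast markers 5 fell, with a median of -0.66. The summed FPKM was 70.2 to 79.6 with busulfan and 109 to 117 with DMSO for the endothelial list, and 218 to 319 with busulfan and 377 to 476 with DMSO for the fibroblast list. The endothelial receptor gene Kdr fell to 2.45 ± 0.590 FPKM with busulfan, against 7.79 ± 1.18 FPKM with DMSO, and the fibroblast receptor gene Pdgfra fell to 16.5 ± 1.59 FPKM with busulfan, against 61.2 ± 5.79 FPKM with DMSO (SD, n = 3 each; limma adjusted p of 0.00019 and 2.21e-06). Of 8 tested general epithelial markers 4 fell and 2 rose, the median log2 change being -0.17. With quantile normalization or scaling to the same sum, limma called 0 of them lower. The epithelial transcription factor gene Elf3 rose by 1.01 on the log2 scale. Of 7 tested smooth muscle markers Actg2, an enteric actin gene, passed with a log2 change of -4.92. Busulfan replicate 3 was the lowest of the 6 libraries for 9 of the 9 fibroblast markers, 11 of the 17 macrophage markers and 5 of the 8 class II antigen presentation genes (H2-Aa, H2-Eb1, H2-DMa, Cd74 and Ciita). The count was 7 of 9 for endothelial, 6 of 10 for leukocyte and 5 of 13 for dendritic markers. For class I genes it was 4 of 23 and for epithelial markers 1 of 8. It was 5 of 7 for smooth muscle, 3 of 8 for costimulatory and 8 of 22 for interferon-γ genes. It was 3 of 12 for endosomal, 2 of 9 for epididymal and 0 of 8 for class II promoter factor genes. The share over all tested genes was not counted, so no pattern across the lists is read from these counts. Without busulfan replicate 3 H2-Aa, H2-Ab1, H2-DMa, H2-DMb2 and Cd74 were still called lower, with log2 changes of -0.59, -0.75, -0.63, -4.14 and -0.58 (limma adjusted p at most 0.00906). The tissue label was checked with 9 genes of the epididymal epithelium, of which 7 fell and 1 rose, with a median log2 change of -4.31. Lcn8, a lipocalin gene of the initial segment, fell to 26.5 ± 3.67 FPKM with busulfan, against 12280 ± 457 FPKM with DMSO (SD, n = 3 each; limma adjusted p = 4.73e-10). Gpx5, a secreted peroxidase of the caput, stood at 27020 to 30550 FPKM with busulfan and 34540 to 35700 FPKM with DMSO (limma adjusted p = 0.044). The Gpx5 call was lost in 9 of 14 alternatives, and its direction was not kept in all of them. Over the alternatives 0 to 2 of the epididymal genes were called higher.

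The genes most like the class II antigen presentation genes over the 6 libraries were found by Pearson correlation with their mean log2(FPKM + 1), as a description over 6 points that share 2 groups. For the mean of the 7 tested genes, to which H2-DMb2 contributes most, these were Dnajc5 (r = 0.9987), Ccdc125 (0.9981), Tusc3 (0.9980), Arap3 (0.9980) and Cebpg (0.9979), all called lower with busulfan. Dnajc5 lost its call in 8 of 14 alternatives, and its direction was not kept in all of them. Its call was lost after scaling to the same sum (limma adjusted p = 0.994), quantile normalization (0.358) or the replicate block (0.0681). It was also lost without any 1 of 5 libraries (limma adjusted p of 0.051 to 0.0767). For the mean of H2-Aa, H2-Ab1, H2-Eb1, H2-DMa and Cd74, a choice made after the values were seen, the first 5 were Col5a2 (r = 0.9984), Fbln5 (0.9965), H2-Ea-ps (0.9961), Col13a1 (0.9945) and Pcolce (0.9931). Col5a2 stood at 2.53, 2.07 and 1.62 FPKM in the busulfan libraries, against 3.85, 3.48 and 4.52 FPKM in the DMSO libraries. Of these 5 genes 4 encode collagens or matrix proteins, and H2-Ea-ps is the class II pseudogene described above. The share of such genes among all tested genes was not counted, so no theme is read from these 5. For the mean of the 7 tested genes H2-Ea-ps ranked 195 with r = 0.9861. For the mean of the 5 class II genes Ctss ranked 22 with r = 0.9870, Csf1r 338 with 0.9444 and Ptprc 3690 with 0.6522, and these 3 genes were picked after the ranks were computed. Among the 5 class II genes themselves, r lay between 0.883 (H2-Eb1 and H2-DMa) and 0.986 (H2-Ab1 and H2-Aa), and with H2-DMb1 it lay between -0.341 and -0.051.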

How the data were processed

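RNA of the proximal epididymis was sequenced in 3 busulfan and 3 DMSO libraries, made with a stranded mRNA kit per the labels' protocols. The authors deposited normalized FPKM for 24346 genes, a unit named per the file headers. TopHat2 2.1.1, Cufflinks 2.2.1 and mm10 are named per the submitters' processing notes, with no role. The sources used here do not state how libraries were normalized, which annotation served or the strand setting. With no counts, no count test was run. FPKM depend on library scaling: the summed FPKM was 625087 to 666662 with busulfan and 707219 to 732495 with DMSO. Depth was roughly estimated at 11400000 to 13400000 fragments per library, from values under 0.3 FPKM of 149 to 171 genes with a single transcript of over 3000 bases. The estimate of each library is the median of the densest group of these genes, which held 17 to 31 of them. No pair of libraries was identical.

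For the 12848 genes averaging 1 FPKM or more, log2(FPKM + 1) entered limma 3.58.1 (R 4.3.3, mean-variance trend) with all 6 libraries, Benjamini-Hochberg adjustment and a threshold of 0.05. The procedure was run on simulated data with independent noise for each gene, which says nothing on the scaling of these libraries. An exact permutation test of a single gene with 3 libraries a group cannot go below p = 0.1. The alternatives tried were a pseudocount of 0.1, no filter, a filter of 5 FPKM, quantile normalization, summed FPKM rescaled to 1000000, no trend, each library left out and a replicate block. A further alternative, added after the values were seen, summed H2-DMb1 and H2-DMb2 into 1 row. Coordinates are GENCODE M21 (GRCm38), 1-based. Promoters are RefSeq GRCm38.p6 windows of 250 bases before and 50 after the RNA start, and transcripts were aligned with Biopython 1.88. Figures were drawn with matplotlib 3.10.9.

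The members and the 16 further gene lists were chosen with earlier results of these data known. By rule, the text names from each list at most 3 genes, those past the threshold with the largest change (or the 2 most abundant where none passed), and the 5 genes most alike. Values are given for part of them. Genes outside that rule (other genes of the class II region, H2-K1, B2m, Nfyc, Ctss, Ifi30, March8, C1qa, Ptprc, Gpx5, Cd80, Cd86, Ifng and markers near 0) were chosen after their values were seen.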

Additional observations from a re-analysis of the deposited data

How the results depend on the processing

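H2-Aa, H2-Ab1, H2-DMa and Cd74 kept their call and direction in all 14 alternatives, with log2 changes between -0.92 and -0.53, and H2-DMb2 in all 13 in which it had its own row, between -4.57 and -4.04. In 1 of the 14 alternatives H2-DMb1 and H2-DMb2 were summed, which left the rows of the other genes unchanged. That alternative was no test of their calls. H2-Eb1 kept its call in 8 of 14. Besides the left-out libraries named above, it was lost with no filter (limma adjusted p = 0.0535) and after rescaling to a common sum (0.0588). H2-DMb1 passed in 0 of 13 limma fits, at an adjusted p of 0.139 to 0.996. Its estimate was reversed on leaving out single libraries, where it ran from -0.0897 to 0.0551. The count of the 8 genes called lower was 5 or 6 and that called higher 0 in each alternative in which H2-DMb1 and H2-DMb2 had their own rows. Rescaling to a common sum raised the median log2 change of all genes by about 0.14. It gave 4579 genes higher and 1595 lower, against 2668 and 2833 as deposited, and quantile normalization gave 3228 and 2302. Relative to that shift H2-DMb1 stayed near the median gene (0.15 after rescaling). The replicate block gave 2204 genes higher and 2423 lower and changed no call of the 8 genes (H2-Eb1, limma adjusted p = 0.048). The replicate numbers are not stated to pair animals, and the deviations of same-numbered libraries correlated at -0.18, -0.025 and -0.175. Among the other lists, macrophage markers called lower (2 as deposited) ran from 0 to 3, and epithelial markers called lower (4) were 0 under both scalings. Depth limits Ciita and most dendritic, B and T cell markers, which rest on few fragments.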
